A study of Mus musculus with 9 samples.

Results

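The genes described here are 9 factors of nonsense-mediated mRNA decay, Upf1, Upf2, Upf3a, Upf3b, Smg1, Smg5, Smg6, Smg8 and Smg9, chosen by symbol from the 38215 genes of the deposited table. The rule uses symbols and no measured value, although the set was proposed with earlier results of these data known. All 9 were found and all 9 passed the filter on low counts. RNA was sequenced from bone marrow cells of 9 C57BL/6J mice, sorted for the absence of lineage markers and the presence of Sca1 and Kit (LSK cells), the fraction that holds haematopoietic stem cells and multipotent progenitors. Every mouse carried Jak2V617F, an activating mutation of the kinase Jak2, had received tamoxifen, and gave cells positive for both GFP and mCherry. The 5 mice titled EV, a term the labels do not spell out, had Jak2V617F alone, and the genotype of the other 4 adds sgZrsr2, described in the series' design as loss of Zrsr2, a splicing factor. Neither the mice's age nor what the tamoxifen acts on is in the sources used here.

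Nonsense-mediated decay removes messenger RNAs on which translation stops too early. The RNA helicase Upf1 joins the stalled ribosome, and Upf2 and Upf3b link it to an exon junction complex left downstream by splicing. The kinase Smg1, with its partners Smg8 and Smg9, then phosphorylates Upf1, and phosphorylated Upf1 recruits the endonuclease Smg6 or the adaptor Smg5, which leads to removal of the cap and the poly(A) tail. A retained intron usually brings an early stop codon, so that transcripts with one can be sent to this route. The mRNAs of several of the factors are themselves decay targets, and in mice the blood stem and progenitor cells depend on Upf2.

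The promoters of 3 factors are shown first because the results turn on how these genes varied together over the libraries: Smg1, which followed Smg6, and Upf1 and Smg5, which followed each other. Each run is the longest stretch outside annotated exons within the 250 bases before the start site, 5′ to 3′ on the gene's strand, from RefSeq for GRCm38.p6, and the window of Smg6 lies wholly in exons of Smg6 and Srr and is not printed. Capitals mark matches on either strand to any of 6 motifs searched: the Ets motif, spelled CCGGAAG; the Sp1 motif, spelled GGGCGG; one side of the palindromic NRF1 motif, spelled GCGCATG; the TATA box, spelled TATAAA; the CCAAT box; and the E-box, spelled CACGTG. Matches to different motifs may overlap.
Upf1 (chr8:70353280-70353529, minus strand): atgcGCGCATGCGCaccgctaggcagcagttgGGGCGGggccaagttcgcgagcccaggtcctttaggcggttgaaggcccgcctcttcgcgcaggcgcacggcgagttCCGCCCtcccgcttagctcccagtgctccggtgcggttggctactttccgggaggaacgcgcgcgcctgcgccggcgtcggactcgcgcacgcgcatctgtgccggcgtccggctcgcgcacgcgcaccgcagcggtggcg
Smg1 (chr7:118243671-118243864, minus strand): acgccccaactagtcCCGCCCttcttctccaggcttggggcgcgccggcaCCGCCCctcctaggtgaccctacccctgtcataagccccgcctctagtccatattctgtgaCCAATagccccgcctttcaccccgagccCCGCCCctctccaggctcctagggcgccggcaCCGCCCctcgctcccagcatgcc
Smg5 (chr3:88336149-88336259, plus strand): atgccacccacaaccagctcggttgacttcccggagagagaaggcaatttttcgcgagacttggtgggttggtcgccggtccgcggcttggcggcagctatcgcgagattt
The Upf1 run holds the NRF1 letters at 2 overlapping places, 1 on each strand, and the Sp1 motif at 2 places. Smg1 has 5 Sp1 matches and 1 CCAAT match in its window, and Smg5 has no match to any of the 6. All 9 factors had a promoter in the RefSeq table. Of the 9 windows, 7 held the Sp1 motif, against 32.7% of the 32851 promoters in the table, and none held TATAAA, against 12.4%. NRF1 was matched in 1 of 9 (3.24% of all promoters), Ets in 1 of 9 (6.91%), CCAAT in 4 of 9 (33.8%) and the E-box in none (6.02%). The median G and C content of the 9 windows was 64%, against 52.4% over all promoters. These matches describe the letters only.

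The libraries held 23238242 to 45585510 counts, which for the 9 factors meant 709 to 15449 counts per gene and library. Zrsr2, the gene named in the sgZrsr2 label, was at 50.6 to 62.2 CPM (counts scaled to library size with TMM factors) with EV and 31.7 to 44.4 CPM with sgZrsr2, without overlap (edgeR unadjusted p = 0.0032, adjusted 0.714). The LSK genes Kit and Ly6a (Sca1) were at 247 to 632 and 14.8 to 49.3 CPM. Of the markers of mature cells, 3 of 5 T and NK cell genes (Cd3e, Cd3d and Cd8a), 1 of 5 B cell genes (Ms4a1) and 1 of 6 neutrophil genes (Ly6g) stayed under 1 CPM in all 9 libraries. Others did not: summed over its list, the neutrophil level was 5.57 to 158 CPM with EV and 6.79 to 188 CPM with sgZrsr2, highest in EV mouse 5 and sgZrsr2 mouse 3. The T and NK cell sum was 46.7 to 80.5 and 58.9 to 94.0 CPM, nearly all of it Nkg7, and the B cell sum 2.50 to 25.99 and 3.52 to 13.2 CPM. The monocyte and macrophage sum was 223 to 386 and 170 to 321 CPM. The megakaryocyte sum was 121 to 286 and 215 to 460 CPM, and the erythroid sum 16.9 to 55.1 and 45.5 to 100 CPM. The mast cell and basophil sum was 37.1 to 102 and 42.4 to 142 CPM. Of that list, Prss34 had 0 counts in sgZrsr2 mice 1 and 2 and 3.83 to 58.0 CPM in the other libraries. The part of such cells in the results was not tested. EV mouse 5 and sgZrsr2 mice 3 and 5 stood apart: the erythroid gene Car1 was at 25.4, 39.3 and 35.5 CPM in them and at most 0.422 CPM in the other 6. sgZrsr2 mice 1 and 2 had the fewest counts (23238242 and 25857695, against 32961341 to 45585510) and the fewest detected genes (16188 and 16832, against 18380 to 19429). They also had the highest mitochondrial share (4.04% and 4.07%, against 2.27% to 3.36%). Their correlation over genes of at least 10 CPM ranked 3 of the 36 pairs of libraries (r = 0.98) and that over all tested genes 11 (r = 0.97). In such bulk samples, fewer cells of a type and less RNA per cell cannot be told apart.

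Comparing sgZrsr2 with EV asks whether the decay machinery itself was expressed at another level when Zrsr2 was lost. By edgeR's quasi-likelihood method 0 of the 9 factors reached a Benjamini-Hochberg adjusted p under 0.05, beside 0% of the 14944 genes tested. At an unadjusted p under 0.05 there were also 0 of 9, beside 6.85% of all genes. The DESeq2 Wald test also put 0 of 9 past the adjusted threshold, beside 0.107% of genes (16), and 1 of 9 (Smg6) past an unadjusted p of 0.05, beside 8.54%. With limma-voom and quality weights these were 0 of 9, beside 0%, and 3 of 9 (Upf2, Smg5 and Smg9), beside 17.1%. Fitted log2 fold changes ran from -0.12 (Upf3a) to 0.23 (Smg6 and Smg1), with 7 factors above 0 and 2 below. Their median was 0.08, beside -0.01 over all genes tested. Each 95% interval holds for 1 gene in this fit: over the 9 factors, the lowest lower bound was a fold of 0.742 (Upf3a) and the highest upper bound a fold of 1.43 (Smg1). These are not a joint bound over the 9. In a fit of 6 libraries given below, the interval of Upf2 reached a log2 fold change of 0.72.

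**Figure D1:**
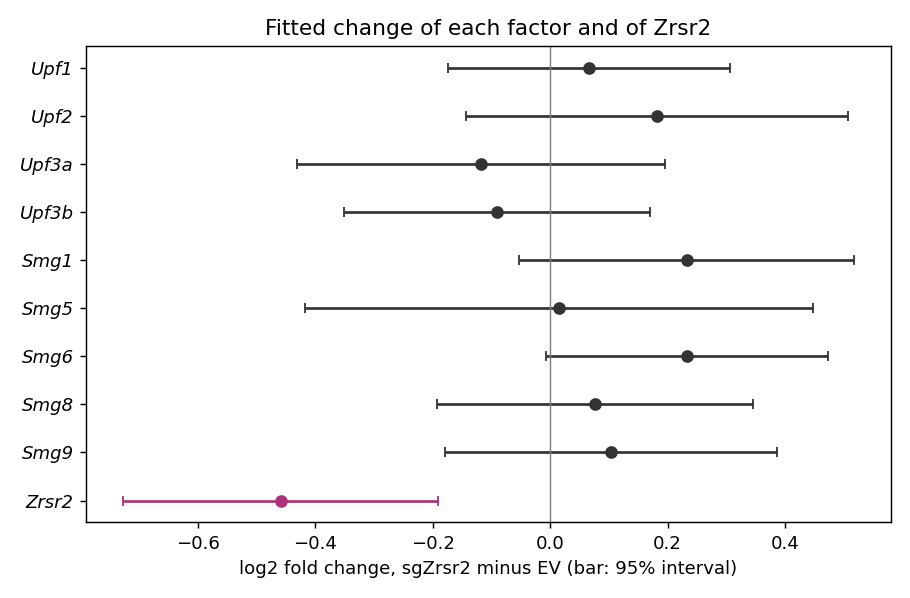
Fitted log2 fold change of sgZrsr2 minus EV (x axis) for the 9 decay factors and Zrsr2 (y axis), with points for the edgeR estimate and bars for its 95% interval over 5 EV and 4 sgZrsr2 mice. The intervals of all 9 factors include 0. That of Zrsr2, at -0.46, does not, but its edgeR adjusted p was 0.714.

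Upf1 (ENSMUSG00000058301; chromosome 8, 70331522 to 70353273, minus strand, GRCm38 as are all coordinates here) encodes the helicase at the centre of the pathway. Its levels in EV mice 1 to 5 were 197, 215, 239, 231 and 227 CPM. Those of sgZrsr2 mice 1, 2, 3 and 5 were 253, 253, 198 and 225 CPM. The highest values were those of sgZrsr2 mice 1 and 2, while sgZrsr2 mouse 3 was among the lowest, so the groups overlapped. The means were 221.7 ± 16.5 (SD, n = 5) and 232 ± 26.2 CPM (SD, n = 4), a log2 fold change of 0.07 (SE 0.11; edgeR adjusted p = 0.884; two-sided exact permutation p = 0.492 over 126 splits).

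Upf2 (ENSMUSG00000043241; chromosome 2, 5951469 to 6056703, plus strand), the bridge between Upf1 and Upf3, was at 89.3, 88.2, 100.2, 75.5 and 79.7 CPM with EV in the same order of mice. With sgZrsr2 it was at 115.5, 115.2, 86.2 and 75.9 CPM. Here too sgZrsr2 mice 1 and 2 lay above all other libraries, and mice 3 and 5 lay inside the EV range. The log2 fold change was 0.18 (SE 0.15; 95% interval -0.14 to 0.51; edgeR adjusted p = 0.762).

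The paralogs Upf3a and Upf3b both bind Upf2, and Upf3b is the stronger activator of decay of the pair. Upf3b (ENSMUSG00000036572; chromosome X, 37091678 to 37110322, minus strand) was at 65.5, 70.1, 73.8, 70.1 and 56.8 CPM with EV and at 67.3, 71.7, 60.5 and 53.2 CPM with sgZrsr2. Upf3a (ENSMUSG00000038398; chromosome 8, 13785615 to 13798538, plus strand) was at 29.3, 34.1, 38.5, 35.2 and 26.7 CPM with EV and at 35.3, 28.4, 26.6 and 30.6 CPM with sgZrsr2. The groups overlapped for each. These were the 2 factors with fitted changes below 0, at -0.09 (SE 0.12; edgeR adjusted p = 0.847) for Upf3b and -0.12 (SE 0.14; edgeR adjusted p = 0.835) for Upf3a. Within a library, the ratio of Upf3a to Upf3b counts does not depend on scaling. The EV mice had ratios of 0.447, 0.487, 0.522, 0.501 and 0.471, and the sgZrsr2 mice 0.525, 0.395, 0.439 and 0.576. The sgZrsr2 libraries spanned a wider range and held both the lowest and the highest ratio. Group means of the log2 ratio differed by -0.02 (two-sided exact permutation p = 0.857, and 0.857 adjusted over the 2 ratios compared), within a spread of 0.09 (SD, n = 5) for EV and 0.25 (SD, n = 4) for sgZrsr2.

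Smg1 (ENSMUSG00000030655; chromosome 7, 118131308 to 118243637, minus strand) encodes the kinase that phosphorylates Upf1. Its levels with EV, mice 1 to 5, were 330.2, 294, 282, 218 and 296 CPM. Those with sgZrsr2 were 331, 328, 376 and 301 CPM. EV mouse 4 was the lowest library and sgZrsr2 mouse 3 the highest, and EV mouse 1 lay within the sgZrsr2 range. The means were 284 ± 41.1 (SD, n = 5) and 334 ± 31.1 CPM (SD, n = 4), with a log2 fold change of 0.23 (SE 0.13; edgeR adjusted p = 0.714; two-sided exact permutation p = 0.0476, not adjusted).

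Smg8 and Smg9 form the complex that holds Smg1 in check until decay is triggered. Smg8 (ENSMUSG00000020495; chromosome 11, 87077732 to 87086774, minus strand) was at 27.2, 29.8, 26.4, 30.1 and 34.5 CPM with EV and 33.3, 32.7, 27.2 and 31.7 CPM with sgZrsr2. Smg9 (ENSMUSG00000002210; chromosome 7, 24399619 to 24422778, plus strand) was at 40.7, 44.7, 54.4, 57.5 and 44.0 CPM with EV and 51.4, 59.1, 48.1 and 48.9 CPM with sgZrsr2. Both overlapped between groups, with log2 fold changes of 0.08 (SE 0.12; edgeR adjusted p = 0.879) and 0.10 (SE 0.13; edgeR adjusted p = 0.839). EV mouse 5 had the highest Smg8 of all, and sgZrsr2 mouse 2 the highest Smg9.

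Smg6 (ENSMUSG00000038290; chromosome 11, 74925823 to 75164448, plus strand) encodes the endonuclease that cuts the target RNA near the early stop. It was at 111.0, 108, 97.3, 83.2 and 105 CPM with EV and at 111.2, 116.8, 129.6 and 116.9 CPM with sgZrsr2. This was the one factor of the 9 whose groups did not overlap, beside 3.06% of all genes tested. The gap was narrow, from 111.03 CPM in EV mouse 1 to 111.21 CPM in sgZrsr2 mouse 1, and the groups did overlap with upper-quartile factors (EV up to 112.3 and sgZrsr2 from 108.2 CPM) and with library totals alone (EV up to 113.1 and sgZrsr2 from 107.5 CPM), scalings examined for this after its values were seen. Its log2 fold change was 0.23 (SE 0.11; 95% interval -0.01 to 0.47), with an edgeR unadjusted p of 0.056 and adjusted p of 0.714 (two-sided exact permutation p = 0.0159, the minimum over 126 splits). The gene overlaps Srr at its start on the other strand, and the strandedness of the counting is not given in the sources used here.

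Smg5 (ENSMUSG00000001415; chromosome 3, 88336260 to 88362337, plus strand), the adaptor of the other decay branch, was the most variable of the 9. Its levels were 114, 129, 203, 185 and 152 CPM with EV and 181, 188, 117 and 148 CPM with sgZrsr2. Low and high libraries were found in both groups, which overlapped almost fully (log2 fold change 0.02, SE 0.20; edgeR adjusted p = 0.985), and the sign turned when any of EV mouse 1, EV mouse 2, sgZrsr2 mouse 1 or sgZrsr2 mouse 2 was left out. The ratio of Smg6 to Smg5 counts, the endonuclease against the adaptor, was 0.973, 0.836, 0.479, 0.449 and 0.694 with EV and 0.615, 0.622, 1.107 and 0.789 with sgZrsr2. The mean log2 ratio was higher with sgZrsr2 by 0.21, less than the SD of either group (0.49 with EV, n = 5, and 0.40 with sgZrsr2, n = 4; two-sided exact permutation p = 0.492, and 0.857 adjusted over the 2 ratios).

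**Figure D2:**
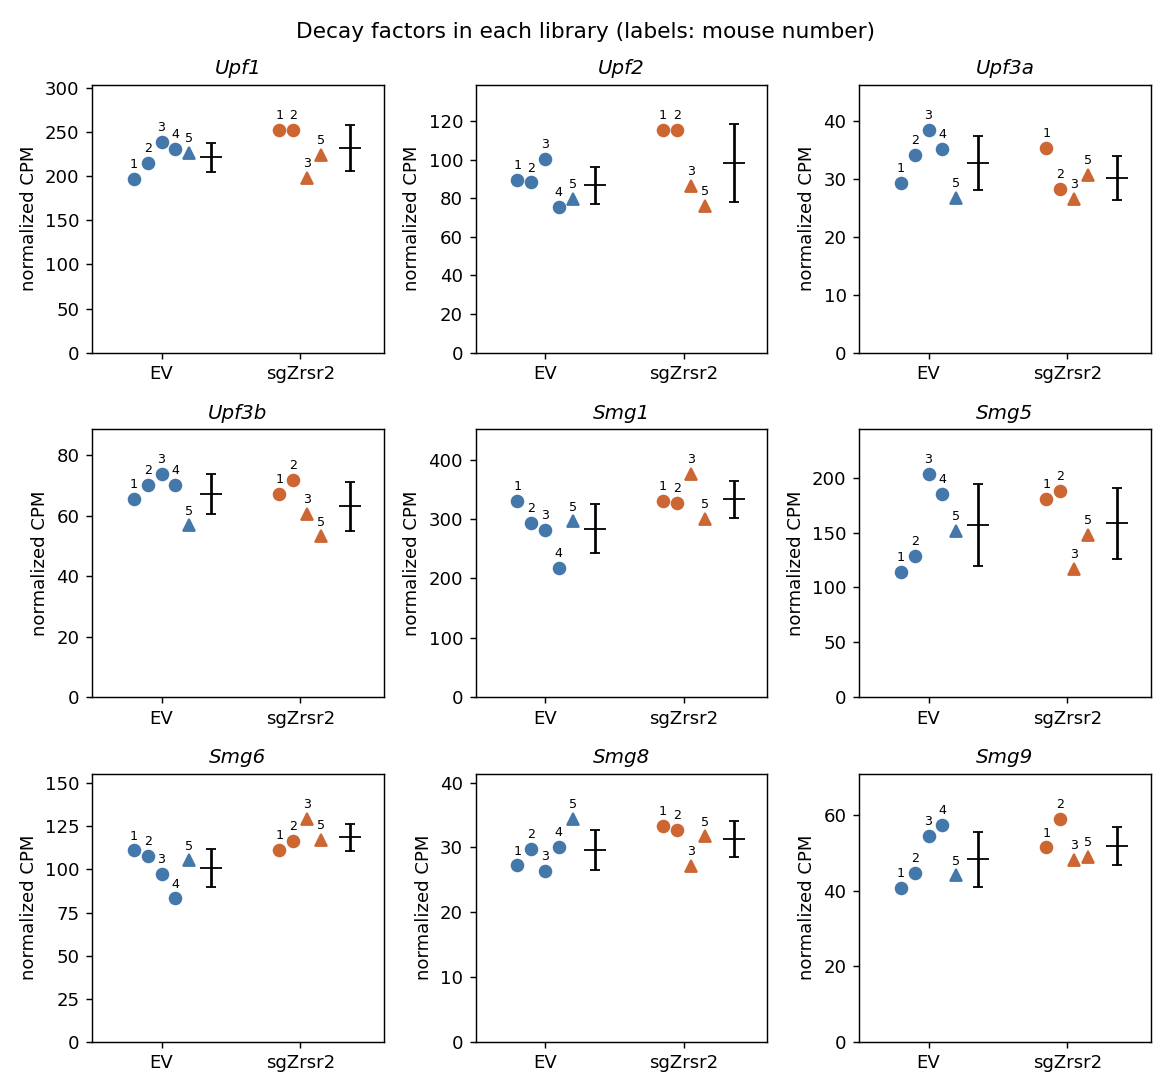
Normalized CPM (y axes, each from 0) of the 9 decay factors in every library, by group (x axis), with mouse numbers above the points, triangles for EV mouse 5 and sgZrsr2 mice 3 and 5, and a black mark and bar for the mean and SD of each group. Smg6 is the one panel in which all sgZrsr2 points lie above all EV points, by 111.21 against 111.03 CPM, and Upf1 and Upf2 are highest in sgZrsr2 mice 1 and 2.

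Averaged over the 9 factors, EV mice 1 to 5 had a log2 CPM of 6.35, 6.42, 6.55, 6.42 and 6.38. The sgZrsr2 mice 1, 2, 3 and 5 had 6.61, 6.61, 6.39 and 6.41. The sgZrsr2 libraries thus formed a high pair above all EV libraries and a pair inside the EV range. The high pair are the libraries with the fewest counts, the fewest detected genes and the highest mitochondrial share. The part of these in the result was not tested. Without EV mouse 5 and sgZrsr2 mice 3 and 5, 4 EV libraries stood against these 2, and the median log2 fold change of the 9 was 0.21. The sgZrsr2 libraries kept are the pair already seen to be high, so this larger median is not a separate result. The fitted changes were then 0.39 for Upf2 (SE 0.14; unadjusted p = 0.0247; edgeR adjusted p = 0.389), 0.21 for Upf1 and -0.10 to 0.24 for the other 7. Past an unadjusted p of 0.05 there was 1 of 9, beside 11% of genes, and past the adjusted threshold 0 of 9. With TMM factors computed anew for these 6 libraries, the groups did not overlap for 5 factors (Upf1, Upf2, Smg1, Smg6 and Smg8), beside 23.2% of 15323 genes. On the CPM printed above, scaled over 9 libraries, Smg1 did overlap. There EV mouse 1 (330.2 CPM) lay between sgZrsr2 mouse 2 (327.5 CPM) and sgZrsr2 mouse 1 (330.7 CPM).

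Levels of different genes were compared per length, as CPM per kilobase of merged exons in GENCODE M21. By this measure Upf1 was the most abundant, at 49.0 ± 4.46 CPM per kilobase (SD, n = 9 libraries), and Upf3a the least, at 5.39 ± 0.732. Between them lay Smg5 (22.6 ± 4.76), Upf2 (16.8 ± 2.81), Upf3b (16.4 ± 1.78), Smg9 (13.5 ± 1.70), Smg6 (12.9 ± 1.55), Smg1 (12.8 ± 1.81) and Smg8 (9.43 ± 0.913). Of the neighbours in this order, Upf1 and Smg5 had ranges that did not overlap, as had Smg8 and Upf3a. Smg5 lay above Upf2, and Upf3b above Smg9, in 9 of 9 libraries, and Smg1 above Smg8 in 8. By contrast Upf2 exceeded Upf3b in 5 of 9, Smg9 exceeded Smg6 in 4 and Smg6 exceeded Smg1 in 5, so these neighbours did not differ beyond their spread. Merged exons of Smg1 came to 23984 bases, more than its longest coding transcript of 15557, and a sum that includes exons rarely used lowers a level per length. Those of Upf3a came to 5865 bases against 2057, and those of Smg8 to 3218 for both. The place of Upf3a as the least therefore rests on the length used. Smg5 (6956 against 4448), Smg6 (8453 against 5848), Upf3b (3999 against 2344) and Smg9 (3702 against 2242) differed too, and Upf2 less (5474 against 5174). The order between the genes is therefore tied to merged exons.

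**Figure D3:**
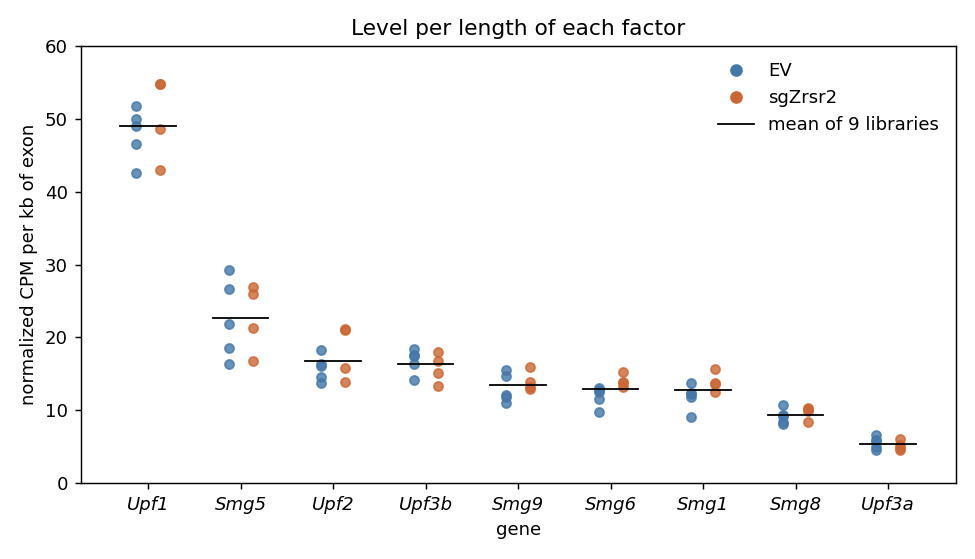
Normalized CPM per kilobase of merged exons (y axis) of each decay factor (x axis, ordered by the mean), with a point for each EV and sgZrsr2 library and a line for the mean of 9. Upf1, at 49.0, lies apart from the rest, and the EV and sgZrsr2 points overlap for all genes but Smg6.

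The annotation of the 9 genes holds splice forms that are themselves of the kind the pathway removes. GENCODE M21 lists 45 transcripts for them, 18 protein-coding, 17 with a retained intron, 3 marked as targets of nonsense-mediated decay and 7 processed transcripts. The 3 decay targets belong to Smg1, Smg5 and Smg6, with 1 each. Retained-intron forms were listed for 5 genes, Smg1 and Smg5 with 5 each, Smg9 with 4, Upf3a with 2 and Smg6 with 1, and for none of Upf1, Upf2, Upf3b and Smg8. The counts sum all forms of a gene, so which form was present was not analysed here. Deposited expected counts of 8 factors were exactly whole numbers, with no tolerance, in 9 of 9 libraries and those of Smg6 in 8. A count that is not whole holds reads that RSEM divided between genes.

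Over the 9 libraries the factors varied little: the coefficient of variation was 9.11% (Upf1) to 21.0% (Smg5), with a median of 12.6%, beside 17.0% over 9630 genes of at least 10 CPM. They did not rise and fall as one. Of the 36 pairs, 23 had a positive and 13 a negative correlation of log2 CPM, and 2 passed a Benjamini-Hochberg adjusted p of 0.05 over the 36 in two-sided exact permutation tests of Pearson's r. Smg1 and Smg6, the kinase and the endonuclease, had r = 0.94 (exact permutation p = 0.00057, adjusted 0.0103) and Spearman's rho = 0.83 (p = 0.00827, adjusted 0.0969). Without the 2 libraries farthest from the median of Smg1, EV mouse 4 and sgZrsr2 mouse 3, r fell to 0.68 (n = 7; exact permutation p = 0.0929), so the relation rests in part on them. It was 0.92 after the group means were removed and 0.97 in the 6 libraries low in Car1. Of 14943 genes 16, Smg6 among them, had an r with Smg1 at least as high.

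Upf1 and Smg5, the helicase and the adaptor that binds it once phosphorylated, had r = 0.92 (exact permutation p = 0.000502, adjusted 0.0103) and rho = 0.92 (p = 0.00131, adjusted 0.0472). Without EV mouse 1 and sgZrsr2 mouse 3, the farthest for Upf1, r was 0.80 (n = 7; exact permutation p = 0.0361), and it was 0.94 within groups and 0.89 in the 6 libraries low in Car1. Of 14943 genes 33, Smg5 among them, had an r with Upf1 at least as high. Smg9 went with both, at r = 0.83 with Smg5 (p = 0.00749, adjusted 0.0899) and 0.74 with Upf1 (p = 0.0243, adjusted 0.219), neither past the threshold by exact permutation. Smg6 and Smg5 had a negative r of -0.54 that did not pass, with an exact permutation p of 0.13 (adjusted 0.39). That r was -0.79 within groups and -0.35 in the 6 libraries low in Car1, neither of them tested. The coding transcripts of Upf1, Smg5 and Smg9 hold 57.9%, 56.5% and 60.3% G and C and those of Smg1 and Smg6 44.9% and 51.9%, whose part in these relations was not tested. The libraries were prepared by 1 protocol. Without sgZrsr2 mouse 2, one of the pair with fewest detected genes, r was 0.94 for Smg1 with Smg6 and 0.92 for Upf1 with Smg5.

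**Figure D4:**
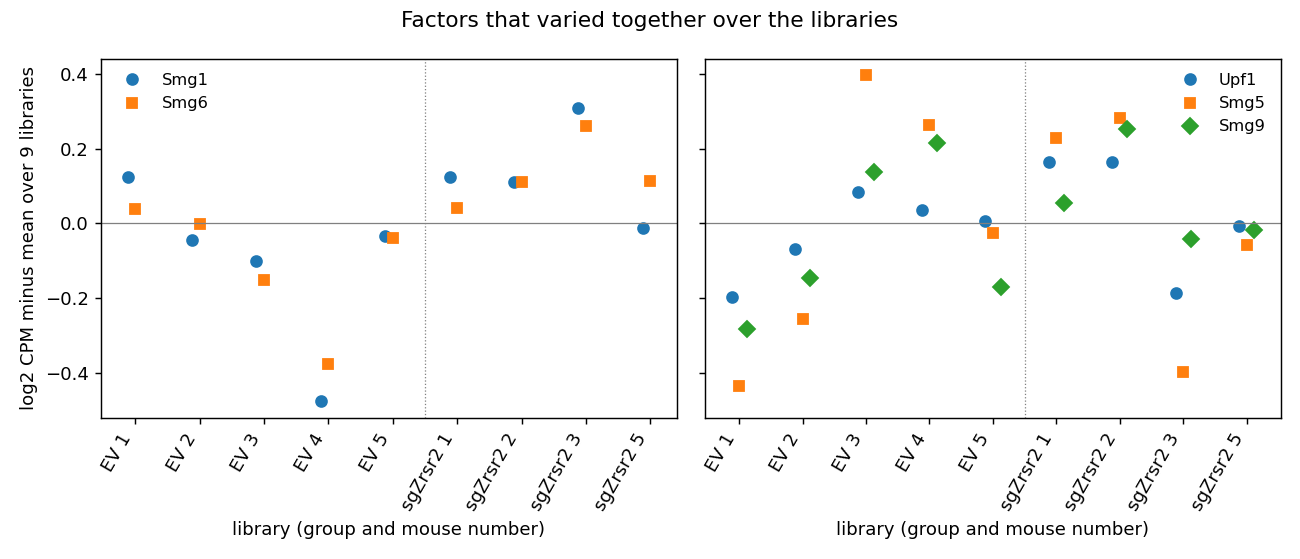
Log2 CPM minus the mean over the 9 libraries (y axis) for Smg1 and Smg6 (left) and Upf1, Smg5 and Smg9 (right) in each library (x axis), with EV libraries left of the dotted line. Smg1 and Smg6 were lowest in EV mouse 4 and highest in sgZrsr2 mouse 3, where Smg5 was at 117 CPM, close to its lowest value of 114.

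Of 9621 other genes of at least 10 CPM, those closest to the mean standardized level of the 9 factors were Rtf1 (r = 0.99, rho = 0.98), Scyl3 (r = 0.98, rho = 0.95) and Rbbp6 (r = 0.98, rho = 0.92), over 9 libraries. They were chosen for this likeness, which is given as a description.

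The rest of the pathway was examined through lists written from general knowledge. In 5 lists of 45 genes that act with the 9 factors, 0 passed the adjusted threshold in edgeR's test, and 1 was higher and 1 lower at an unadjusted p under 0.05, beside 3.87% and 2.98% of all genes. Over these lists and the 2 that follow, 5 genes had such a p, a count that went to 9 without EV mouse 5 and to 3 without sgZrsr2 mouse 2. Among 6 genes of the exon junction complex, which marks spliced RNA, 5 had fitted changes below 0 and the median was -0.25. Casc3, a peripheral subunit, was the exception, with 102 ± 5.04 CPM (SD, n = 5) in EV and 118.1 ± 4.41 CPM (SD, n = 4) in sgZrsr2 mice (log2 fold change 0.21, SE 0.09; edgeR unadjusted p = 0.0318, adjusted 0.714). Its groups did not overlap, beside 3.06% of all genes. None of its 9 counts was a whole number, so each holds reads divided with other genes. The share of such reads was not measured, which leaves it uncertain. All 4 genes of translation termination lay below 0 (median -0.22), and the smallest p was that of Gspt1, the release factor eRF3a (-0.30, SE 0.17; edgeR adjusted p = 0.714), whose counts were whole in 0 of 9 libraries. Without EV mouse 5 and sgZrsr2 mice 3 and 5 the medians of these 2 lists were -0.07 and -0.04. EV mouse 3 was kept there. It was the highest library for the 5 exon junction genes below 0 and for Etf1, Gspt1 and Pabpc1. Its TMM factor was the smallest (0.894), and its part in these medians was not tested.

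Among 9 further factors the median was -0.05. Pnrc2, which ties Upf1 to decapping, had the smallest p of that list (0.27, SE 0.14; edgeR adjusted p = 0.714). The 14 decapping and exonuclease genes had a median of -0.01, with Dcp1a, a decapping cofactor, at 0.18 (SE 0.10; edgeR adjusted p = 0.714). The 12 deadenylation genes had a median of 0.07. Cnot10, a subunit of the CCR4-NOT deadenylase, had 77.9 ± 10.1 CPM (SD, n = 5) in EV and 62.9 ± 5.31 CPM (SD, n = 4) in sgZrsr2 mice (log2 fold change -0.31, SE 0.12; edgeR unadjusted p = 0.0224, adjusted 0.714).

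Transcripts known to be sensitive to decay build up when the pathway is weak, but counts per gene cannot tell slower decay from more transcription. Of 10 such genes 9 were matched and tested, and 8 had fitted changes below 0 with sgZrsr2 and 1 above (median -0.32), beside 7698 of 14944 genes below 0 and a median of -0.01. None had an unadjusted p under 0.05 by edgeR, and none passed the adjusted threshold. In 6 of the 9 (Gas5, Snhg12, Zfas1, Atf4, Atf3 and Gadd45b) the 3 lowest libraries were EV mouse 5 and sgZrsr2 mice 3 and 5, those high in Car1, as in 9.73% of all genes. Without these 3 libraries 7 of 9 lay below 0 and the median was -0.26, beside -0.03 over all genes. Of the 8 below 0 in all 9 libraries, each but Zfas1 (EV mouse 4) was highest in EV mouse 3. Gas5, a snoRNA host gene whose spliced RNA is a decay target, was at 520, 442, 672, 589 and 423 CPM with EV and 464, 460, 412 and 373 CPM with sgZrsr2 (log2 fold change -0.31, SE 0.15; edgeR adjusted p = 0.714). The groups overlapped, with the 2 highest values in EV mice 3 and 4. Of 8 splicing factor genes with poison exons, cassette exons that send the transcript to decay, all 8 lay below 0 (median -0.25) and 3 were lower at an unadjusted p under 0.05, beside 2.98% of all genes. These were Tra2b (-0.49, SE 0.17), Srsf7 (-0.30, SE 0.11) and Tra2a (-0.29, SE 0.12), each with an edgeR adjusted p of 0.714, and of the 3 Srsf7 alone had groups that did not overlap (279 to 345 CPM in EV mice 1 to 4 and 254 CPM in EV mouse 5, against 223 to 252 CPM), beside 3.06% of all genes. Without EV mouse 5 and sgZrsr2 mice 3 and 5, 6 of 8 lay below 0 (median -0.21) and 1, Tra2b at -0.41 (SE 0.14; edgeR adjusted p = 0.373), was lower at an unadjusted p under 0.05, beside 5.42% of genes. All 8 but Tra2a, highest in EV mouse 1, were highest in EV mouse 3, whose part in these 2 lists was not tested. The counts of Tra2b were whole in 0 of 9 libraries, so it is uncertain too, and its share of divided reads was not measured. Counts per gene cannot tell a form with the poison exon from one without.

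**Figure D5:**
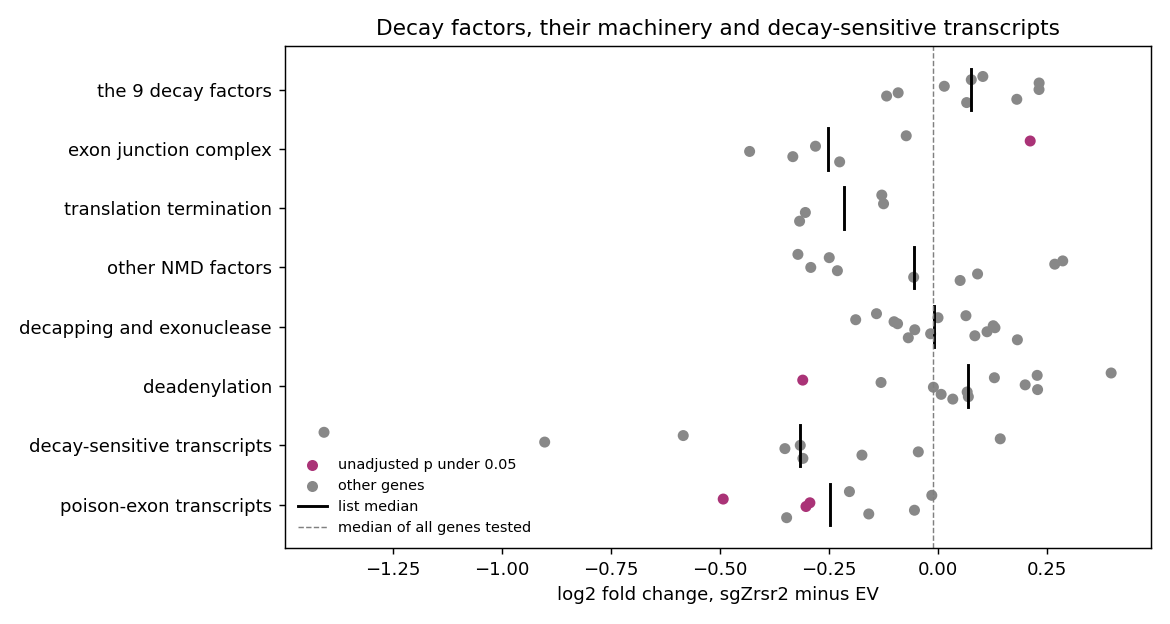
Log2 fold change of sgZrsr2 minus EV (x axis) for each tested gene of the 9 decay factors and 7 lists (y axis), with purple points for an unadjusted p under 0.05, a black line for the list median and a dashed line for the median of all genes tested (-0.01). The 9 factors lie between -0.12 and 0.23 around a median of 0.08, and no gene shown passed the adjusted threshold.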

How the data were processed

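RNA-seq was analysed from 9 mice, 5 EV and 4 sgZrsr2. The authors deposited RSEM expected counts per Ensembl gene, not normalized, 1 column per sample; the submitters' processing notes name cutadapt 1.11, RSEM 1.2.30 and GRCm38, and aligner, annotation release and strandedness are not given in the sources used here. Polyadenylated RNA was selected from 5 ng of total RNA and amplified by PCR, per the labels' protocols, and no molecular identifiers are named.

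Counts were rounded, filtered with filterByExpr (minimum count 10, minimum total 15; 99.93% of counts kept), scaled with TMM factors and tested with edgeR 4.0.16 (glmQLFit, glmQLFTest) in R 4.3.3, with Benjamini-Hochberg adjustment over 14944 genes. The SE is the log2 fold change over the square root of F. DESeq2 1.42.0 and limma 3.58.1 were alternatives, beside other scaling, other filters, libraries left out and the mouse number as a block. Counts simulated with known changes were used to check the fit. The NRF1 letters searched were shortened from the full palindrome after a first search, which had found the same 1 member. Correlations used log2 CPM with a prior count of 2. Lists were matched by symbol (109 of 117 entries) or by the GENCODE M21 identifier of the symbol (116 in all). The members, though named by symbol alone, the lists and the alternatives were chosen with earlier results of these data known, and list values without 3 libraries were added after the data were seen. From the lists, genes at an unadjusted p under 0.05, or else the one of smallest p, were named, and with them the 3 genes most like the members. One gene of the lists is not reported here by name. Titles number the samples m1 to m5, read here as separate mice.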

Additional observations from a re-analysis of the deposited data

Results flagged for a closer look

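For each of the 9 factors, Zrsr2 and the 2 ratios, the most extreme mouse of each group was compared with the next one, as a share of the group's spread. In 24 such comparisons 1 extreme value was found, beside about 1.2 from chance. EV mouse 3 had 62.2 CPM of Zrsr2, and the other EV mice had 50.6 to 51.9 CPM. No value of the 9 decay factors and neither ratio stood out.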

How the results depend on the processing

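The count of decay factors past the adjusted threshold stayed at 0 in all 10 alternatives and all 9 fits without 1 library, as did that of the list genes. The median log2 fold change of the 9 factors ran from 0.04 to 0.14 in 9 alternatives and was 0.205 without EV mouse 5 and sgZrsr2 mice 3 and 5. The sgZrsr2 mice kept there, 1 and 2, were the pair high in these factors, and the cause was not tested. Fits that dropped 1 library moved it between 0.0285 (without sgZrsr2 mouse 2) and 0.138 (without sgZrsr2 mouse 3). The change of Upf3b was 0.000591 without the 3 libraries together. That of Smg5 was 0.35 by limma-voom and -0.0715 with sgZrsr2 mice 1 and 2 averaged, and without 1 library it ran from -0.084 to 0.136, with -0.0794 without EV mouse 1, -0.0468 without EV mouse 2, -0.0629 without sgZrsr2 mouse 1 and -0.084 without sgZrsr2 mouse 2. The other 7 factors kept their direction in these settings. The log2 ratio of Upf3a to Upf3b differed by 0.00417 with mice 1 and 2 averaged and by -0.108 to 0.0732 without 1 library, at 0.00791 without EV mouse 3, 0.0227 without sgZrsr2 mouse 3 and 0.0732 without sgZrsr2 mouse 2. That of Smg6 to Smg5 differed by -0.0633 without the 3 libraries and by 0.0329 to 0.356 without 1. Zrsr2 ran from -0.50 to -0.36 over the alternatives.

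The list genes at an unadjusted p under 0.05 numbered 5, and 2 (mouse number as a block) to 10 (limma-voom) over the alternatives, with 8 for library totals alone, and 3 to 9 without 1 library. With the mouse number as a block the median of the 9 factors was 0.0972 and 0 of 9 passed. No consistent pairing by number was seen: deviations from the group means of same-numbered mice correlated at -0.23, -0.09, -0.40 and 0.37 for numbers 1, 2, 3 and 5. Of the 4 sgZrsr2 mice number 5 alone correlated best with its own number. Other differences between libraries enter these correlations, so they cannot exclude a pairing. The 9 factors had at least 709 counts per library, but the reads were amplified by PCR and are not independent molecules, and the part of depth in the intervals was not tested.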

Other observations

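Among the decay-sensitive transcripts the stress genes Gadd45b and Atf3 differed more between libraries than between groups; they are named after their values were seen. Gadd45b had 48.0, 52.5, 224, 101 and 13.1 CPM in EV mice 1 to 5. In the sgZrsr2 mice 1, 2, 3 and 5 it had 49.3, 51.3, 17.1 and 15.1 CPM (log2 fold change -1.41, SE 0.70; edgeR adjusted p = 0.714). Atf3 was at 58.3, 107, 265, 87.3 and 19.3 CPM with EV and 88.2, 89.4, 38.3 and 14.1 CPM with sgZrsr2 (log2 fold change -0.90, SE 0.69; edgeR adjusted p = 0.754). For both, EV mouse 3 was the highest library, and EV mouse 5 and sgZrsr2 mice 3 and 5, the 3 libraries high in Car1, were the lowest.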
